A study of Mus musculus with 6 samples.

Results

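The proteasome genes measured here were every row of the expression table whose symbol has the form Psma, Psmb, Psmc, Psmd, Psme, Psmf or Psmg, followed by a number and at most 1 further letter. The rule found 48 of the 23381 genes in the table, and it left out the rows of the pseudogenes Psma5-ps and Psmb6-ps2. Psme2b, an intronless relative of Psme2, is annotated as protein coding and was kept. RNA came from whole mammary tumours of Balb/c mice. 4T1, a mouse mammary carcinoma line from the same strain, had been placed in the inguinal mammary fat pad at 500000 cells per mouse, and the mice were given as 10 weeks old. The control group received DMSO, the vehicle, and the other group Vismodegib, which blocks the Hedgehog signal transducer Smoothened, at 2 mg per mouse. Both were given 3 times per week for 3 weeks once tumours had formed. Each group had 3 libraries. All 6 tumours thus carried the same cell line in the same strain and differed, per the labels, in the agent alone. Since no label ties a library to an animal of its own, p-values here rest on the variation among samples, which may be technical.

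The proteasome is the protease complex that degrades proteins marked with ubiquitin. Its core, the 20S particle, is a barrel of alpha rings and beta rings, and the beta subunits Psmb5, Psmb6 and Psmb7 carry the active sites. Under interferon gamma, and constitutively in many leukocytes, these are replaced by Psmb8, Psmb9 and Psmb10 to form the immunoproteasome, whose products feed antigen presentation on MHC class I. The 19S cap recognises ubiquitin, unfolds the substrate with a ring of ATPases and opens the barrel; activators of the PA28 family are an alternative cap. When proteasomes fail, the transcription factor Nfe2l1 is known to raise the subunit genes together.

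Because many subunit genes are known to share regulation, their promoters were read first. RefSeq promoter windows (GRCm38.p6, each from 250 bases before to 50 after a start) were found for 40 of the 48 genes, in 43 windows, and 5 motifs were searched on both strands, each counted on its own also where it shares bases with another. The ETS core CCGGAAG stood in 34.9% of the proteasome windows, in 14 genes, and in 8.86% of all 32851 windows. The antioxidant response element core TGACNNNGC, to which Nfe2l1 and Nfe2l2 bind, stood in 14.0% against 12.4%, and its 6 genes included the catalytic genes Psmb5 and Psmb6. The CCAAT box stood in 30.2% against 37.4%. The interferon-stimulated response element core, GAAA followed by any pair of bases and GAAA, stood in 11.6% against 3.44%. Its 5 genes were Psme1, Psmb3, Psmd4, Psmd9 and Psmg4. The gamma-activated site core TTCNNNGAA stood in 6.98% against 8.3%, and its 3 genes were Psmb8, Psmd2 and Psmg1. The windows of Psmb9, Psmb10 and Psme2 held neither of these cores. All motif counts are matches of letters in the windows and not measured binding sites.

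Printed here, 5′ to 3′ with motif matches in capitals, are 3 stretches that hold no annotated exon: upstream of Psmb5, because it carries the antioxidant core, and upstream of Psma6 and Psmd4, because their groups did not overlap in the comparison described further on. Psmd10, whose groups did not overlap either, had 3 CCAAT boxes in its window, but no stretch of it was clear of annotated genes. A second window of Psma6, at a start inside the gene, held 3 ETS cores and is likewise not printed. Psmb5 lies on the minus strand (chr14:54618023-54618245), Psma6 on the plus strand (chr12:55383972-55384221) and Psmd4 on the minus strand (chr3:95042615-95042864).
Psmb5: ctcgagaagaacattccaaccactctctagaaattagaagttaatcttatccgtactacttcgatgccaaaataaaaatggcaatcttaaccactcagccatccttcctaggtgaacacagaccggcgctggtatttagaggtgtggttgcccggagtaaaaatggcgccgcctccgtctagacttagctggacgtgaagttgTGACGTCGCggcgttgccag
Psma6: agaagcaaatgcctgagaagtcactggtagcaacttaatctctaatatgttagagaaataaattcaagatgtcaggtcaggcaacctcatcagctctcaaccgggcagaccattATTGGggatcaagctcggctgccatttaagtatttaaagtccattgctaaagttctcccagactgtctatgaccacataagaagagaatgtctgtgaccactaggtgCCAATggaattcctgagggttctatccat
Psmd4: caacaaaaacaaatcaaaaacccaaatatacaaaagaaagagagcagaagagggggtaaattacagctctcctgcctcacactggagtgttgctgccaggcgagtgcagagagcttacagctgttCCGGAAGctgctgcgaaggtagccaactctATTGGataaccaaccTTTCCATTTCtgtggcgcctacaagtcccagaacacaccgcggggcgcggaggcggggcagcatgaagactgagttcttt
The capitals mark the antioxidant core in Psmb5 and 2 CCAAT boxes, 1 on each strand, in Psma6. In the stretch of Psmd4 they mark, in order, the ETS core, a CCAAT box and an interferon-stimulated core, the last 2 on the opposite strand.

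Library totals recovered from the steps of the low values ran from 34800000 to 57900000 reads, so that every tested proteasome gene rested on at least an estimated 121.6 reads in each library. Values are in RPKM, reads scaled to transcript length and library total, which allows levels of different genes to be compared per length. All 48 genes but 1 reached a mean of 0.5 RPKM, the limit for testing. The exception was Psma8, the testis form of an alpha subunit, whose DMSO tumours, always in the order of replicates 1, 2 and 3, gave 0, 0.081 and 0.030 RPKM and whose Vismodegib tumours gave 0.241, 0.019 and 0.131 RPKM. For its transcript of 1918 bases, 3 reads correspond to 0.027 to 0.0449 RPKM, a limit that covers counting error only. The groups overlapped (two-sided exact permutation p = 0.3). Psmb11, the thymus form of Psmb5, was not among the 48 genes that the rule found, so it was not analysed here.

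The tumours held the epithelial markers of the implanted line (Epcam, 146 to 470 RPKM) beside other cells. Summed over 5 general leukocyte markers, the level was 101 to 201 RPKM in DMSO and 81.7 to 186 RPKM in Vismodegib. Over 6 macrophage markers it was 1061 to 1924 RPKM and 718 to 2489 RPKM. Neither list had a member at 0 in any library. Over 6 fibroblast markers it was 57.8 to 71.8 RPKM in DMSO and 71.8 to 176 RPKM in Vismodegib; the groups just failed to meet, since the highest DMSO and the lowest Vismodegib sum round to the same value. In bulk tissue, fewer cells of a type and less RNA per cell cannot be told apart.

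Among the subunits, Psmb10 had the highest mean level, 676.7 RPKM over the 6 libraries, and its lowest library (529 RPKM) lay above the highest of Psmb4 (420 RPKM), which came next. Psmb4 (mean 308 RPKM), the PA28 activator genes Psme1 and Psme2 (293 and 279 RPKM) and Psmb8 (217 RPKM) followed. Psmb4, Psme1 and Psme2 overlapped in their ranges over libraries, so their order was not separated by the spread. The range of Psmb8 also met those of Psme1 and Psme2. The alpha subunits, which enter the particle in equal number, had mean levels from 21.1 RPKM (Psma3) to 163 RPKM (Psma6). The 6 ATPases of the cap ran from 16.7 RPKM (Psmc6) to 106 RPKM (Psmc5), and the other 11 cap subunits from 9.53 RPKM (Psmd6) to 111 RPKM (Psmd4). The lowest tested genes were Psmf1, encoding the inhibitor PI31, at a mean of 1.31 RPKM, Psmd5, a cap assembly chaperone, at 3.29 RPKM, and Psme4, encoding the activator PA200, at 4.10 RPKM. The plot of levels shows these ranks, with genes spread over more than the width of any group difference.

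**Figure D1:**
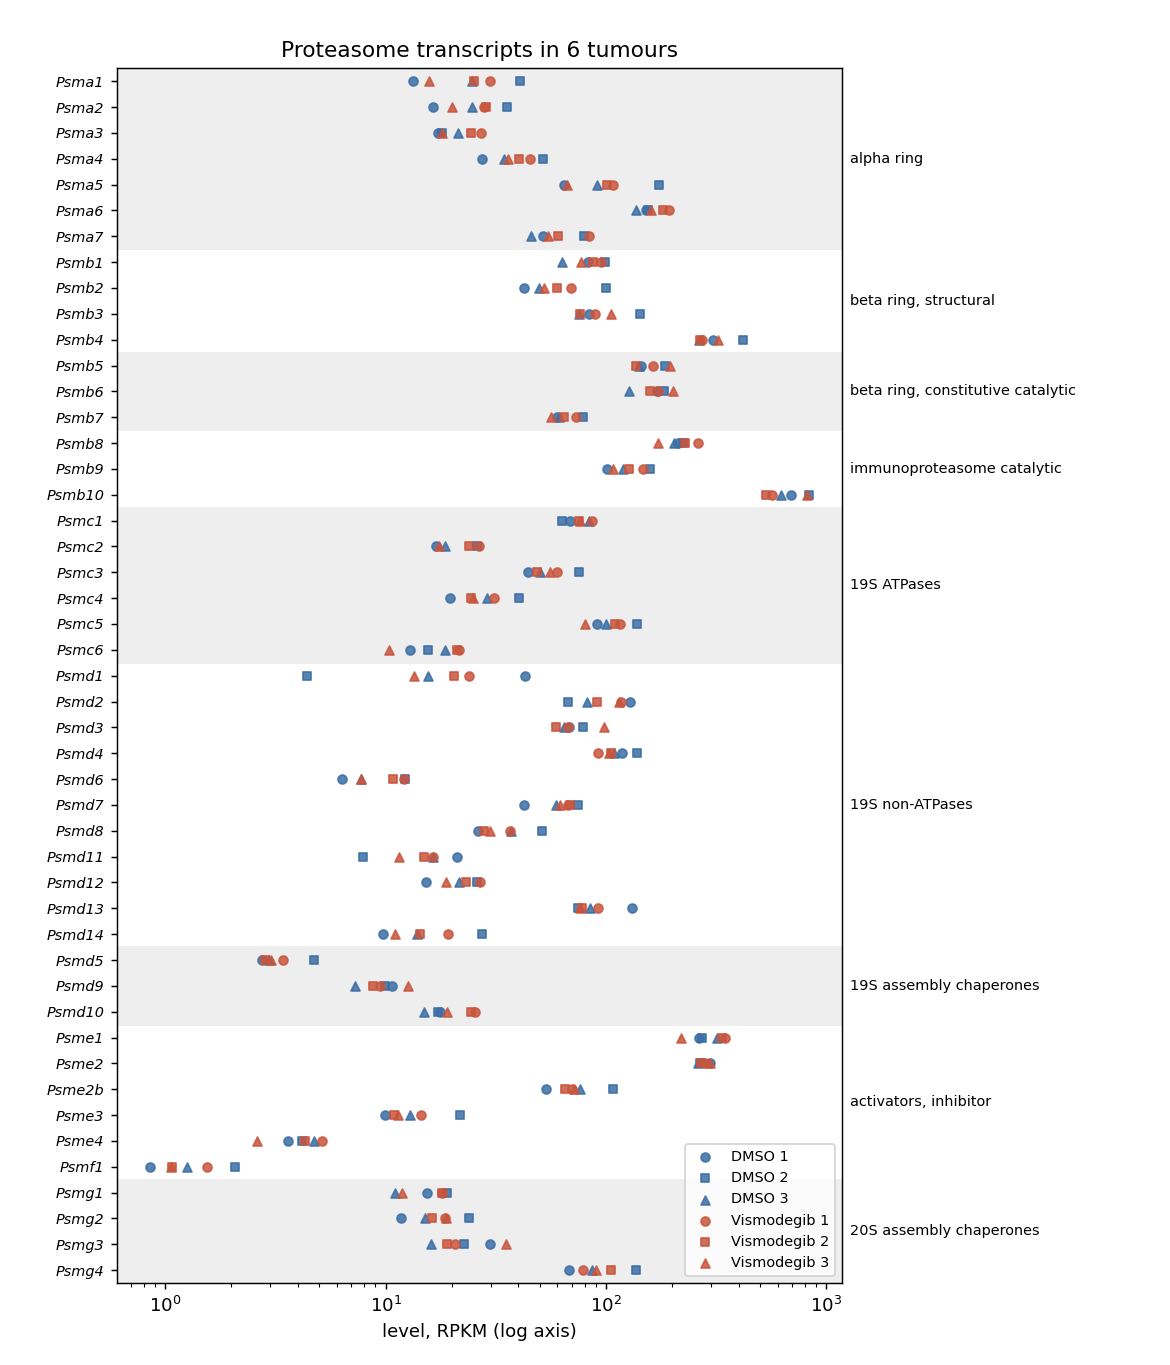
Level of 47 proteasome genes in RPKM (horizontal log axis), with 1 point per library, DMSO in blue and Vismodegib in red, and grouped by role. Psmb10 sits furthest right at 529 to 837 RPKM, Psmd1 has the widest spread, from 4.41 to 42.9 RPKM, and blue and red points overlap in all but 3 genes.

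The immunoproteasome genes were abundant in both groups. Psmb8, the partner of Psmb5 (chymotrypsin-like site), measured 212, 224 and 203 RPKM in the DMSO tumours, then 262, 229 and 173 RPKM in the Vismodegib tumours, so that Vismodegib held both the highest and the lowest library. The log2 difference, Vismodegib minus DMSO on log2(RPKM + 0.5), was 0.03 (SE 0.264), a sign that turned with other scalings, as did those of Psmb9, Psme1 and Psme2. Psmb9, the partner of Psmb6 (caspase-like site), measured 101, 159 and 120 RPKM in the DMSO tumours, then 147, 127 and 108 RPKM in the Vismodegib tumours, all 3 of which lay inside the DMSO range. Its log2 difference was 0.02 (95% interval from -0.61 to 0.65). Psmb10, the partner of Psmb7 (trypsin-like site), measured 688, 837 and 624 RPKM in the DMSO tumours, then 565, 529 and 817 RPKM in the Vismodegib tumours. Only Vismodegib replicate 3 stood with the controls in Psmb10, and the log2 difference was -0.19 (95% interval from -0.84 to 0.47). By limma, all 3 had adjusted p = 0.99995 over the 11818 genes tested.

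Of the constitutive catalytic genes, Psmb7 lay below its partner in every library, while the ranges of Psmb5 and Psmb8, and of Psmb6 and Psmb9, overlapped. Psmb5 measured 144, 186 and 141 RPKM in the DMSO tumours, then 164, 137 and 195 RPKM in the Vismodegib tumours, a log2 difference of 0.07. Psmb6 measured 171, 182 and 128 RPKM in the DMSO tumours, then 172, 159 and 202 RPKM in the Vismodegib tumours (0.16). Psmb7 measured 60.1, 78.4 and 61.2 RPKM in the DMSO tumours, then 73.1, 64.5 and 56.2 RPKM in the Vismodegib tumours (-0.04). In all 3 the groups overlapped, and the choice of scaling turned the sign of Psmb5.

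Within a library, the ratio of partners does not depend on the library total. Psmb8 over Psmb5 was 1.48, 1.21 and 1.44 in DMSO and 1.601, 1.67 and 0.884 in Vismodegib. Psmb9 over Psmb6 was 0.591, 0.872 and 0.939 in DMSO and 0.856, 0.802 and 0.532 in Vismodegib. Psmb10 over Psmb7 was 11.4, 10.7 and 10.2 in DMSO and 7.73, 8.20 and 14.5 in Vismodegib. Vismodegib replicate 3 stood apart from the other Vismodegib libraries in every pair, low in Psmb8 and Psmb9 and high in Psmb10, and the groups overlapped in every pair. The mean log2 ratios differed by -0.04, -0.14 and -0.15. Without Vismodegib replicate 3 these were 0.25, 0.08 and -0.43, so the signs of the Psmb8 and Psmb9 pairs turned without it. The Psmb8 pair also turned without DMSO replicate 1 (0.015), and the Psmb10 pair turned without Vismodegib replicate 1 (0.020), so no pair kept its sign with every library left out in turn.

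Summed over the 6 catalytic genes, Psmb8, Psmb9 and Psmb10 took 72.8%, 73.2% and 74.1% of the RPKM in DMSO and 70.5%, 71.1% and 70.7% in Vismodegib. The groups did not overlap in this share (73.4% ± 0.698 against 70.8% ± 0.299, mean ± SD, n = 3 each), which was computed after the values had been seen and carries no test. With each library's dependence on GC content and length removed, the shares were 72.85%, 72.46% and 73.79% in DMSO. In Vismodegib they were then 71.02%, 72.36% and 69.69%, with an SD of 1.34, and the groups nearly met. Psmb10 had the highest level of the 6 genes in every library. Without Psmb10 and Psmb7 the shares, from the values as deposited, were 49.9%, 51.0% and 54.6% in DMSO and 55.0%, 54.6% and 41.3% in Vismodegib. The groups overlapped. The macrophage and leukocyte marker sums given above overlapped between the groups. The fibroblast sum did not, being higher in Vismodegib. Neither did the epithelial markers Krt7 and Cldn4 and the muscle marker Tnnt3, all higher in Vismodegib, although the sums of their lists overlapped. Such a separation, with Vismodegib higher, was found in 4.29% of all genes. Of the 6 epithelial markers 4 had log2 differences above 0 and 2, Krt8 and Krt18, below (-0.23 and -0.06). The part of the cells that these lists mark in the share was not tested.

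**Figure D2:**
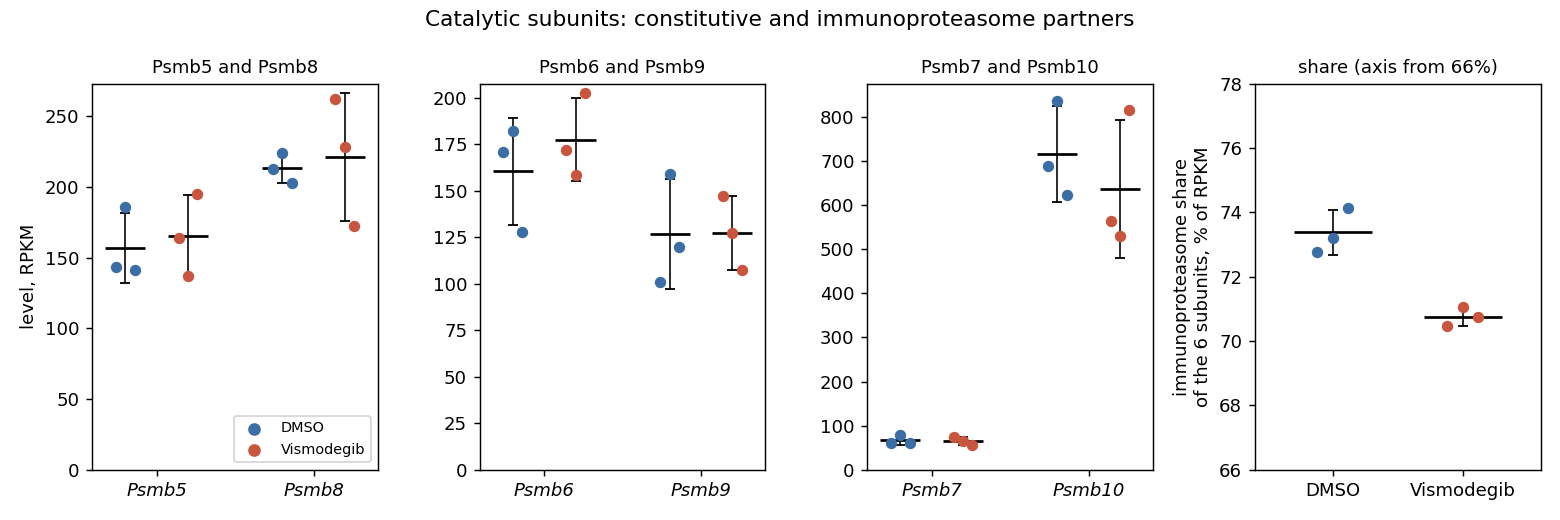
Left 3 panels: level in RPKM of each constitutive catalytic gene and its immunoproteasome partner, with points for libraries and bars for the mean ± SD of 3. Right panel: share of Psmb8, Psmb9 and Psmb10 in the RPKM of the 6 genes, on an axis that starts at 66%; the DMSO points lie at 72.8% to 74.1% and the Vismodegib points at 70.5% to 71.1%.

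The PA28 genes, which encode the cap induced with the immunoproteasome, did not separate the groups. Psme1 measured 265, 273 and 320 RPKM in the DMSO tumours, then 348, 336 and 218 RPKM in the Vismodegib tumours (log2 difference 0.05, SE 0.284). Psme2 measured 297, 266 and 261 RPKM in the DMSO tumours, then 282, 269 and 297 RPKM in the Vismodegib tumours (0.04, SE 0.241), the narrowest error of all proteasome genes tested. Vismodegib replicate 3 was the lowest of the 6 libraries in Psme1, as it was low in Psmb8 and high in Psmb5. In Psme2 it was the highest, but barely above DMSO replicate 1 (297.3 against 296.8 RPKM). Psme2b is a close copy of Psme2 and may share reads with it; it measured 53.5, 107 and 76.1 RPKM in the DMSO tumours, then 70.2, 65.4 and 71.4 RPKM in the Vismodegib tumours. Psme3, the nuclear PA28 gamma, measured 9.96, 21.9 and 12.9 RPKM in the DMSO tumours, then 14.4, 10.9 and 11.4 RPKM in the Vismodegib tumours. In both Psme2b and Psme3 the DMSO libraries spanned the Vismodegib ones, and the log2 differences were -0.14 and -0.21. Together with Psme4 (PA200) and the inhibitor gene Psmf1, 2 of 6 genes had differences above 0 and 4 below, with a median of -0.09.

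In the rings of the core, 9 of the 14 constitutive subunits had differences above 0 and 5 below, with a median of 0.06. The alpha subunit Psma6 measured 153, 154 and 137 RPKM in the DMSO tumours, then 194, 181 and 160 RPKM in the Vismodegib tumours, with every Vismodegib library above every DMSO library. Its log2 difference was 0.26 (95% interval from -0.29 to 0.81; limma adjusted p = 0.99995). Psma3 measured 17.2, 18.1 and 21.4 RPKM in the DMSO tumours, then 27.2, 24.5 and 18.005 RPKM in the Vismodegib tumours (log2 difference 0.28), with overlap through Vismodegib replicate 3. Among the structural beta subunits, Psmb4 measured 304, 420 and 265 RPKM in the DMSO tumours, then 272, 267 and 320 RPKM in the Vismodegib tumours (-0.18). Psmb3 measured 83.6, 143 and 75.4 RPKM in the DMSO tumours, then 88.8, 76.3 and 106 RPKM in the Vismodegib tumours (-0.11). In Psmb3 and Psmb4 DMSO replicate 2 was the highest library and all Vismodegib values lay inside the DMSO range.

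In the 19S cap, 10 of 17 subunits had differences above 0 and 7 below, with a median of 0.07. Psmd4, a ubiquitin receptor of the cap, measured 118, 139 and 108 RPKM in the DMSO tumours, then 92.1, 106 and 104 RPKM in the Vismodegib tumours. It was the 1 proteasome gene in which every Vismodegib library lay below every DMSO library, with a log2 difference of -0.27 (95% interval from -0.83 to 0.28; limma adjusted p = 0.99995). Among the ATPases, Psmc1 measured 68.8, 63.4 and 83.5 RPKM in the DMSO tumours, then 86.7, 75.04 and 76.1 RPKM in the Vismodegib tumours (0.15). Psmc2 measured 17.0, 26.0 and 18.7 RPKM in the DMSO tumours, then 26.6, 23.96 and 17.4 RPKM in the Vismodegib tumours (0.14). Both ATPases overlapped between the groups.

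Psmd1, a large scaffold subunit at the base of the cap, had the widest spread. It measured 42.9, 4.41 and 15.6 RPKM in the DMSO tumours, then 23.9, 20.5 and 13.5 RPKM in the Vismodegib tumours. The highest and the lowest library were both DMSO, 9.71-fold apart, while the Vismodegib libraries were 1.78-fold apart. The groups differed by 0.35 on the log2 scale (95% interval from -1.18 to 1.89), by -0.45 without DMSO replicate 2 and by 1.12 without DMSO replicate 1. Psmd2, the other large subunit of the base, measured 128, 67.0 and 81.7 RPKM in the DMSO tumours, then 116, 90.8 and 115 RPKM in the Vismodegib tumours. Psmd11 was at 20.99, 7.89 and 16.4 RPKM in DMSO, and Psmd13 at 131, 74.7 and 84.6 RPKM; both are subunits of the lid. These 4 non-ATPase genes, singled out after their values were seen, were the ones among the 47 with their highest library in DMSO replicate 1 (8.51%, against 8.81% of all genes). With Psmc1 they were also the 5 genes with their lowest library in DMSO replicate 2 (10.6%, against 23.8% of all genes). In 26 of the 47 genes replicate 2 was instead the highest of all 6 libraries.

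The chaperones that assemble the particle followed. Psmd10, also known as gankyrin, helps to assemble the ATPase ring and measured 17.6, 17.3 and 14.9 RPKM in the DMSO tumours, then 25.3, 24.3 and 19.004 RPKM in the Vismodegib tumours. Every Vismodegib library exceeded every DMSO library (two-sided exact permutation p = 0.1, the smallest that 3 against 3 can give). Its log2 difference of 0.45 (SE 0.245, 95% interval from -0.11 to 1.002) was the largest of the 47 and had the smallest unadjusted p, 0.103, but limma's adjusted p was 0.99995. Psmd9, another chaperone of the ATPases, measured 10.7, 9.95 and 7.25 RPKM in the DMSO tumours, then 9.41, 8.82 and 12.7 RPKM in the Vismodegib tumours (0.14). Psmd9 shares exon bases with a gene on the other strand (25.5% of its own), and other genes do too. Among them are Psmb7, with Nek6 (11.8%, Nek6 at 1.44 to 3.36 RPKM), and Psmb8, with Gm20496 (14.7%, at most 0.0373 RPKM). Psmb5 and Psmg3 share 12.1% and 9.68% with a gene on their own strand. Whether strand was used in counting is not given in the sources used here. Of the 4 genes for chaperones of the alpha ring, Psmg2 measured 11.8, 23.9 and 15.05 RPKM in the DMSO tumours, then 18.6, 16.3 and 18.8 RPKM in the Vismodegib tumours (0.14). Psmg3 measured 29.8, 22.8 and 16.05 RPKM in the DMSO tumours, then 20.7, 18.97 and 35.2 RPKM in the Vismodegib tumours (0.11). The groups overlapped in both.

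Over all 47 tested genes, limma called 0 at an adjusted p under 0.05, where 0% of the 11818 genes were called, and 0 at an unadjusted p under 0.05, where 1.94% of all genes were higher and 0.313% lower. Differences above 0 were found in 28 of the 47 (59.6%) and in 58.4% of all genes. With median-ratio scaling they were found in 20 of the 47, and the median over all genes was then also lower, at -0.01. With the values as deposited, the median difference was 0.04 beside 0.05 over all genes. The proteasome genes ranged from -0.27 (Psmd4) to 0.45 (Psmd10). The groups did not overlap in 3 of the 47 (6.38%), against 5.03% of all genes. Of these, Psma6 and Psmd10 were higher in Vismodegib, 4.26% against 4.29%, and Psmd4 was lower, 2.13% against 0.745%. These shares are near the background. The standard errors ran from 0.241 to 0.675, and in 43 of the 47 the 95% interval lay between -1 and 1, which bounds a change to less than a log2 step of 1 in either direction. Psma1, Psma5, Psmd1 and Psmd10 had intervals that passed that limit, and in 0 genes did the interval lie within a fold of 1.5.

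**Figure D3:**
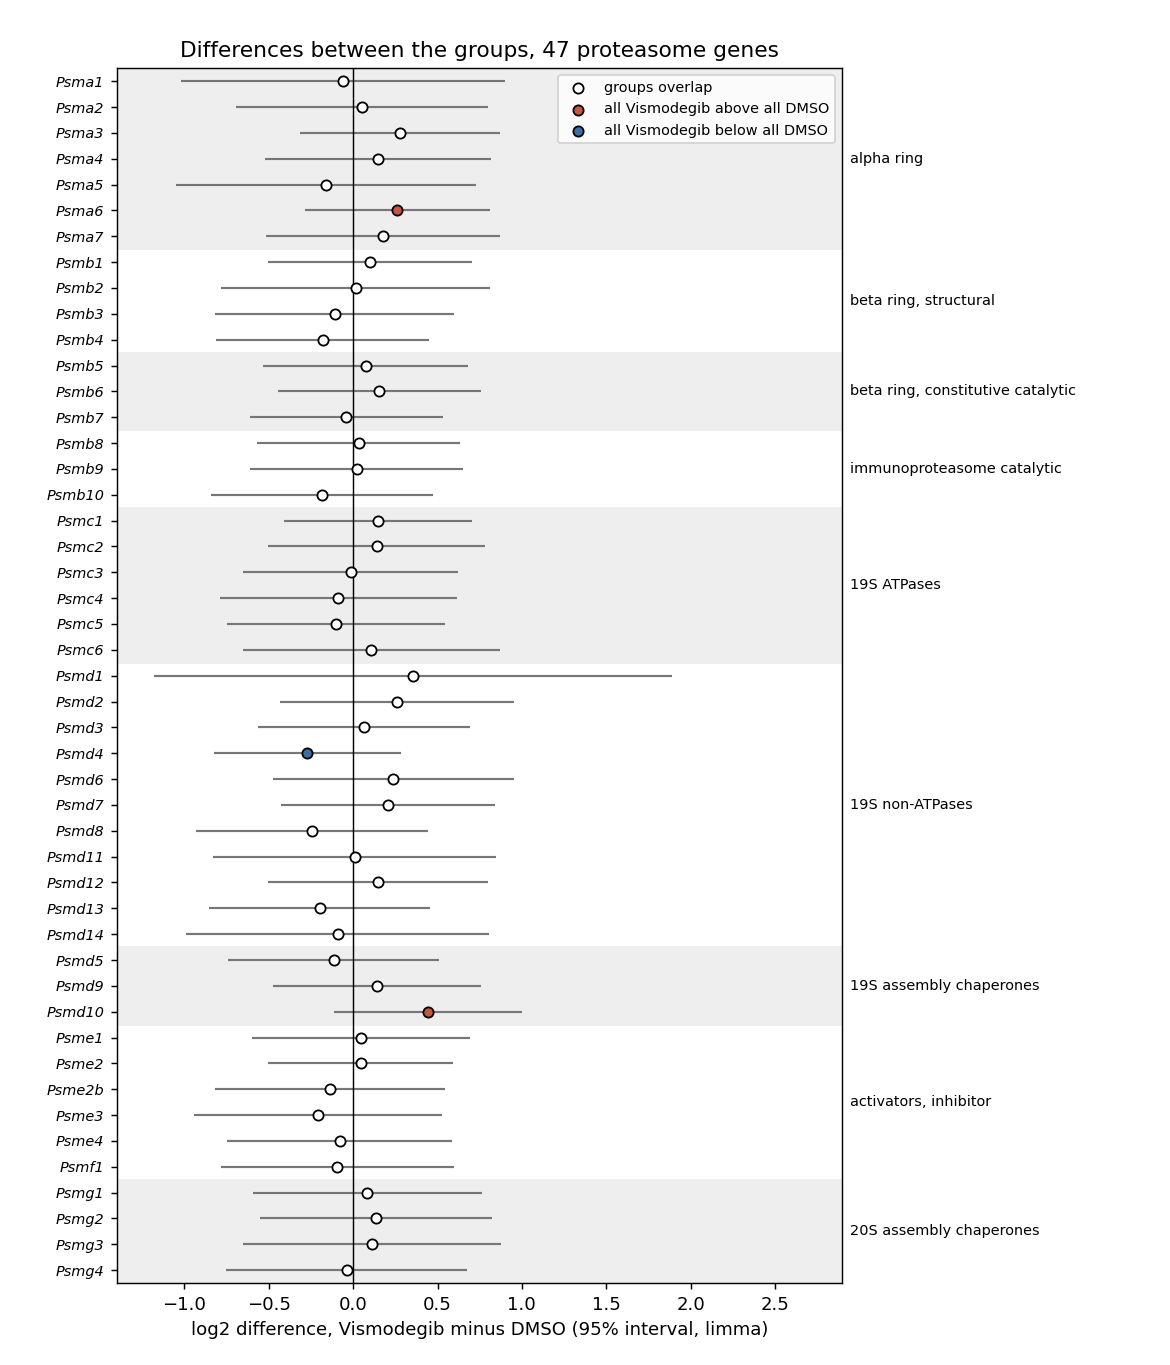
Log2 difference, Vismodegib minus DMSO on log2(RPKM + 0.5), for 47 proteasome genes with 95% intervals from limma; filled points mark genes whose groups do not overlap. All 47 intervals include 0, and the points lie between -0.27 and 0.45.

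The DMSO tumours often enclosed the Vismodegib tumours in level. In 26 of the 47 genes (55.3%), all 3 Vismodegib libraries lay inside the DMSO range, as in 35.1% of all genes. The highest DMSO library exceeded the lowest by a median of 1.71-fold, against 1.38-fold within Vismodegib; over all genes these medians were 1.86 and 1.56. The spread was wider in DMSO in 37 of the 47 (78.7%) and in 65.4% of all genes. Psma1 measured 13.4, 40.7 and 24.7 RPKM in the DMSO tumours, then 29.9, 25.3 and 15.8 RPKM in the Vismodegib tumours. Psmd14, the deubiquitinase of the lid, measured 9.70, 27.5 and 13.8 RPKM in the DMSO tumours, then 19.2, 14.4 and 11.0 RPKM in the Vismodegib tumours. In Psma1 and Psmd14 DMSO replicate 2 was the highest and DMSO replicate 1 the lowest library.

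DMSO replicate 2 was the highest library in 26 of the 47 genes (55.3%) and in 29.8% of all genes, and DMSO replicate 1 was the lowest in 21 (44.7%) and in 31.7% of all genes. The median deviation from each gene's mean over the 6 libraries was -0.19, 0.31 and -0.09 in the DMSO tumours, then 0.18, -0.003 and -0.16 in the Vismodegib tumours. Over all genes tested it was -0.16, 0.04 and 0.03 in DMSO and 0.18, 0.003 and -0.10 in Vismodegib. As deposited, DMSO replicate 2 was the library in which the median of the proteasome genes stood furthest from that of all genes. With each library's dependence on GC content and length removed, its medians were 0.20 and 0.05, a smaller gap. It was also the library with the highest RPKM sum, 432898 against 324967 to 385764 in the others. As a share of that sum the 48 genes took 1.19%, 1.11% and 1.08% in DMSO and 1.10%, 1.04% and 1.11% in Vismodegib, where DMSO replicate 2 is not the highest. With each library scaled to the same RPKM sum, its median deviation was 0.09 for the proteasome genes and -0.14 for all genes. Vismodegib replicate 1 then had the highest median of the proteasome genes, 0.12. With median-ratio scaling the medians of DMSO replicate 2 were 0.26 for the proteasome genes and -0.0006 for all genes. Its dividing cell markers summed to 111 RPKM, against 35.1 to 70.2 RPKM in the other 5 libraries. Top2a, Ccnb1 and Cdk1 were highest in DMSO replicate 2. Mki67 and Bub1 were instead highest in DMSO replicate 3 (9.95 against 8.91 RPKM and 3.77 against 2.71 RPKM in DMSO replicate 2). The part of these markers in the result was not tested. Across the 47 genes, which are not independent, the deviation in DMSO replicate 2 had a Spearman rho of -0.31 with transcript length (-0.24 over 11613 genes). With GC content rho was -0.49 in Vismodegib replicate 1, -0.48 in replicate 2 and 0.41 in replicate 3 (-0.28, -0.41 and 0.35 over 11613 genes).

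Leaving DMSO replicate 2 out gave a median of 0.17, beside 0.09 over all genes, with 40 of 47 differences above 0 and again 0 called. The share of all genes above 0 is not given for that setting, so the count alone does not set the proteasome genes apart. The plot of deviations by library shows Psmd1, Psmd2, Psmd11 and Psmd13 falling from DMSO replicate 1 to DMSO replicate 2, while the median of the 47 is higher in the second of these libraries.

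**Figure D4:**
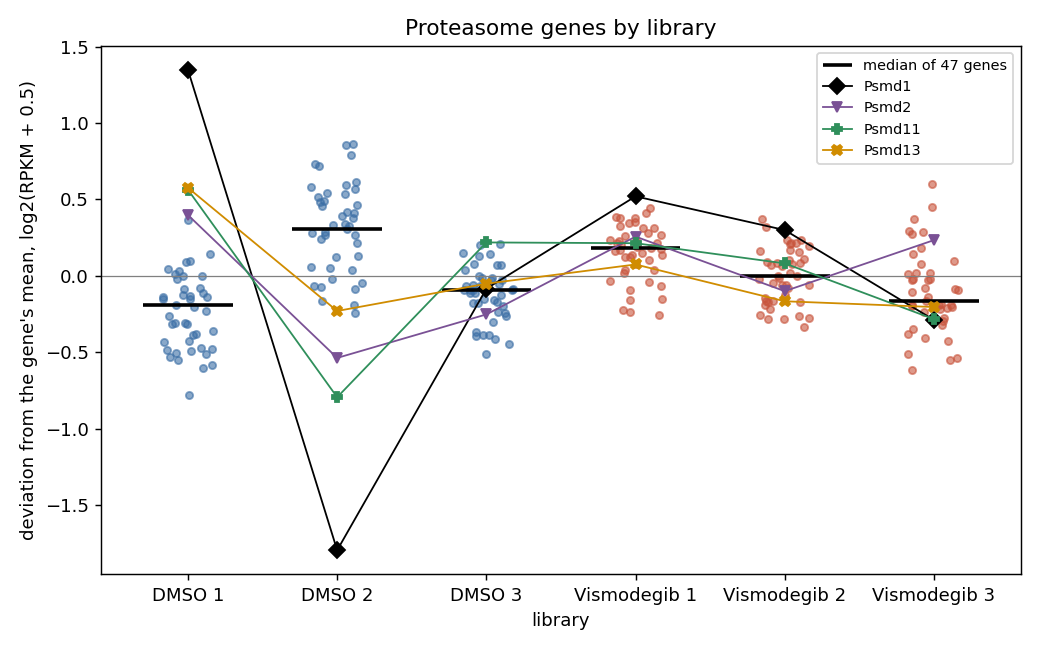
Deviation of each of 47 proteasome genes from its own mean over the 6 libraries, on log2(RPKM + 0.5), by library. Points are genes, black bars the medians and lines 4 cap genes that were picked after their values were seen. The lowest median is -0.19, for DMSO replicate 1, and the highest 0.31, for DMSO replicate 2, while Psmd1 runs the other way.

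Genes that act with the proteasome came from lists of 45 genes in all. By limma, 0 were called at an adjusted p under 0.05, where 0% of all genes were called. At limma's unadjusted p under 0.05 there was 1, where 1.94% of all genes were higher and 0.313% lower. Differences were above 0 in 31 and below in 14, where 58.4% of all genes were above 0. The median difference was 0.06 beside 0.05 over all genes. In 1 gene every Vismodegib library lay above every DMSO library and in 1 below, against 4.29% and 0.745% of all genes. Among 6 regulators of the subunit genes, Ngly1 removes sugar chains from Nfe2l1 before Nfe2l1 becomes active. Ngly1 measured 0.682, 0.699 and 0.769 RPKM in the DMSO tumours, then 1.35, 1.42 and 1.02 RPKM in the Vismodegib tumours, without overlap, with a log2 difference of 0.53 (95% interval from -0.01 to 1.06; unadjusted p = 0.0521, limma adjusted p = 0.99995). Nfe2l1 itself averaged 46.98 ± 7.64 RPKM under the vehicle against 49.8 ± 4.59 RPKM under Vismodegib, and Nfe2l2, the factor of the oxidative stress response, 7.18 ± 1.39 and 9.47 ± 4.11 RPKM (mean ± SD, n = 3 each). Of 15 partners outside the symbol rule, the shuttle genes Ubqln2 and Ubqln4 had the smallest p, with log2 differences of 0.41 and -0.24.

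Around the immunoproteasome, Irf1, a transcription factor that interferon gamma induces, measured 79.1, 83.6 and 99.8 RPKM in the DMSO tumours, then 71.4, 67.6 and 67.9 RPKM in the Vismodegib tumours. Every Vismodegib library lay below every DMSO library, and the log2 difference was -0.34 (95% interval from -0.88 to 0.21; limma adjusted p = 0.99995). Socs1, a feedback inhibitor of the same pathway, measured 16.3, 34.4 and 35.5 RPKM in the DMSO tumours, then 18.2, 9.41 and 11.5 RPKM in the Vismodegib tumours, with overlap. It was the 1 gene of the 45 with an unadjusted p under 0.05 (log2 difference -1.09, unadjusted p = 0.019, limma adjusted p = 0.99995). Within Vismodegib, B2m (2485, 1817 and 1215 RPKM), Psmb8, Psmb9 and Psme1 were each highest in replicate 1 and lowest in replicate 3. So were Tapbpl, Pdia3 and Calr among the class I genes, but not Tap1, Tap2, Tapbp, Erap1 and Nlrc5. Psmb10 and Psme2 were highest in replicate 3. Over all genes tested, the median deviation in Vismodegib fell in the same order as B2m (0.18, 0.003 and -0.10). Tap1, the peptide transporter gene whose exons overlap those of Psmb9 on the other strand over 5.79% of Psmb9's exon bases, measured 24.7, 56.5 and 43.0 RPKM in the DMSO tumours, then 35.7, 37.6 and 27.6 RPKM in the Vismodegib tumours. Of the 9 class I genes, 6 had differences above 0 and 3 below, where 58.4% of all genes were above 0. The 2 with the smallest p were Erap1 and Pdia3, with log2 differences of 0.23 and 0.49.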

How the data were processed

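RNA from 3 DMSO and 3 Vismodegib tumours, grouped by title, was sequenced as pairs of 150 bases. The authors deposited RPKM values per gene; the build was mm10 and the tools included STAR, HISAT2, Partek, SAMtools, cutadapt and bcl2fastq 2.17, per the submitters' processing notes. The sources used here state neither their order nor the annotation or strand setting. Library totals were estimated from the steps of low values in 6992 genes with 1 transcript in GENCODE M21; 84.1% to 85.9% of the values up to 20 reads were whole within 0.02 reads. The 11818 genes that averaged 0.5 RPKM or more were taken to log2(RPKM + 0.5), and limma 3.58.1 (R 4.3.3) compared the groups (eBayes with a trend, group as the only term, two-sided, Benjamini-Hochberg over all genes tested). Fold changes on this scale understate changes of low genes. The steps were tested on simulated data. The members and lists were chosen with earlier results of these data known, so no p is adjusted over a list. The genes given in full were the catalytic subunits, Psme1 and Psme2, the 2 tested members with the largest absolute difference in each other role group and, from each list of related genes, the 2 with the smallest p. Alternatives covered the pseudocount, filter, scaling, eBayes settings, library weights, the replicate block and each library left out; equal RPKM sums, removal of trends on GC content and transcript length within libraries, and the catalytic share were added after the data were seen. Some genes of the lists of related genes are not reported here by name.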

Additional observations from a re-analysis of the deposited data

How the results depend on the processing

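No proteasome gene passed limma's threshold in the analysis as reported or under any alternative except library weights, where 1, Psmd10, did (log2 difference 0.65, adjusted p = 0.0484; 0.97 to 0.99995 over its other alternatives that kept all 6 libraries). Limma's weight there was 7.28 for DMSO replicate 3 and 0.32 for each other DMSO library, and 420 genes were called. Over all genes, 19 were called without DMSO replicate 1 and 1 with the replicate block. The labels number replicates in both groups, but same-numbered libraries had correlations of 0.003, 0.04 and -0.30, so the numbers were not taken as pairs; with the replicate block the median of the proteasome genes was 0.04 and 0 were called. The median was -0.03 with median-ratio scaling and with quantile normalization, which moved the median of all genes to -0.01 and -0.02; 20 of 47 differences were then above 0. It was 0.003 with equal RPKM sums, 0.04 with trends removed, 0.10 with weights and -0.07 to 0.17 with a library left out.

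Signs near 0 turned. With median-ratio scaling, Psmb8, Psmb9, Psme1 and Psme2 were at -0.038, -0.050, -0.024 and -0.026; with quantile normalization, Psmb5, Psmb8, Psmb9, Psme1 and Psme2 at -0.012, -0.039, -0.026, -0.050 and -0.034; with weights, Psmb7, Psmb4, Psmb3 and Psmc1 at 0.096, 0.013, 0.095 and -0.060; with equal RPKM sums, Psmb8 and Psmb9 at -0.0083 and -0.021. With a library left out, values ran from -0.053 to 0.20 for Psmb5, -0.13 to 0.082 for Psmb7, -0.10 to 0.20 for Psmb8, -0.13 to 0.20 for Psmb9, -0.074 to 0.26 for Psme1, -0.32 to 0.0067 for Psmb4, -0.29 to 0.17 for Psmb3, -0.45 to 1.12 for Psmd1, -0.020 to 0.25 for Psmd9, -0.45 to 0.097 for Psme3, -0.39 to 0.11 for Psme2b, -0.087 to 0.41 for Psmg2 and -0.16 to 0.32 for Psmg3. Psma6, Psmd4 and Psmd10 kept their signs under every alternative, as did Psmb6, Psmb10, Psma3 and Psmc2. Since the groups of Psma6, Psmd4 and Psmd10 did not overlap, leaving a library out could not turn their signs. The catalytic share differed by -2.63 points, by -2.01 with trends removed, by -1.53 without Psmb10 and Psmb7 and by -2.93 to -2.24 with a library left out. The cause of these moves was not tested. Depth was low for Psma8, which rested on an estimated 0 to 19.2 reads.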
